A study of Mus musculus with 9 samples.

Results

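Germ cell genes whose promoters are known in mouse cells to be held silent by DNA methylation were followed across 9 clones of mouse embryonic stem cells. They number 8 and are Dazl, Ddx4, Tdrd1, Mael, Sycp3, Piwil2, Asz1 and Slc25a31. They were chosen by name, and each is the sum of all its annotated transcripts, so they are 8 of 35532 genes with a value. Each clone is a population grown from the E14 embryonic stem cell line, cultured on gelatin in medium with serum and the cytokine LIF, and the study picked the clones for the size of their lipid droplets. The clones carry the numbers 1, 4, 6, 8, 10, 11, 13, 14 and 17, and each gave 1 poly(A)-selected RNA library. All 9 share line and culture medium. The labels state the droplet size of no clone, so no group of clones was formed, levels are given clone by clone, and no value below compares small with large droplets. A clone is a single expansion with no repeat culture, so an interval given below covers counting error only.

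In the embryo the methylation of these promoters is laid down around implantation and is erased again in primordial germ cells, where the genes are then switched on. Cultured stem cells in serum hold high methylation, and a further layer of repression rests on the complex PRC1.6, which contains E2F6 and the MGA and MAX pair. E2F6 recognises the E2F core sequence, and MGA with MAX recognises the E-box. In germ cells the products bind and translate RNA (Dazl, Ddx4), make piRNAs and silence transposons (Tdrd1, Mael, Piwil2, Asz1), build the meiotic chromosome axis (Sycp3) or carry ADP and ATP across the mitochondrial membrane (Slc25a31).

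The promoters are shown first because DNA methylation is known to act on them. RefSeq promoter windows of GRCm38.p6, 250 bases before to 50 after the annotated start, were at hand for 7 of the 8 genes. The number of CpG dinucleotides per 300-base window was 38 in Ddx4, 28 in Dazl, 24 in Mael, 22 in Slc25a31, 20 in the first of 3 Tdrd1 windows, 17 in Asz1 and 15 in Sycp3. The median over all 32851 windows of 27025 genes was 7. The second Tdrd1 window held 25 and the third, inside the gene, 3. By this measure each of the 7 has a start with more CpG than the median window. As many CpG or more were found in 4.95% of all windows for Ddx4, the richest, and in 34.6% for Sycp3, the poorest.

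A pair of motifs was searched on both strands: the E2F core TCCCGC, whose reverse complement is GCGGGA, and the E-box CACGTG, which is its own reverse complement. The matches of one did not overlap those of the other. The E-box was present in 5 of 7 genes, against 7.2% of all windows, and in 11.3% of the 11378 windows with 15 or more CpG. The E2F core was present in 4 of 7, against 20.0% of all windows and 45.4% of those with 15 or more CpG, the number in Sycp3. Both were present in Ddx4, Mael, Sycp3 and Slc25a31, 4 of 7, against 2.0% and 5.0%. Dazl and Asz1 held neither set of letters. A match is a run of letters and not a measured binding site.

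Below are the 250 bases before the RefSeq start for 4 genes that hold an E-box and for Dazl, which holds neither motif, each 5′ to 3′ on the gene's strand, with the E-box and E2F core in capitals. The windows are chr1:166238745-166238994 (minus strand) for Mael, chr10:88459337-88459586 (plus strand) for Sycp3, chr3:40708621-40708870 (plus strand) for Slc25a31, chr19:56825959-56826208 (plus strand) for the first Tdrd1 start and chr17:50293621-50293870 (minus strand) for Dazl.
Mael: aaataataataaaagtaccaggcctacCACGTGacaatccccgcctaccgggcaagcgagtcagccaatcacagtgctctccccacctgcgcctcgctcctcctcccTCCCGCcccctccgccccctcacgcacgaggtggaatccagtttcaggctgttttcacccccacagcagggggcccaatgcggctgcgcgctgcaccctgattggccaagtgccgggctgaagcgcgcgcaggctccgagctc
Sycp3: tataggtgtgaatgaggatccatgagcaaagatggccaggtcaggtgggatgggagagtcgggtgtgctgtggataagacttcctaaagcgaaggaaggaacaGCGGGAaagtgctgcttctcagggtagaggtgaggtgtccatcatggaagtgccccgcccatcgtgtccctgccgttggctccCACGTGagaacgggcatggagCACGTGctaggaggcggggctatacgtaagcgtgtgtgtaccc
Slc25a31: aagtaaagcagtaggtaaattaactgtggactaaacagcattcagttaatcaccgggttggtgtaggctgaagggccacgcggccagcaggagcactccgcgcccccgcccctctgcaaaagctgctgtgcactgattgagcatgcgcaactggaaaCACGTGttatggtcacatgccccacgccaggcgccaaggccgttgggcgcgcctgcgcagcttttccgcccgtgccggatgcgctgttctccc
Tdrd1: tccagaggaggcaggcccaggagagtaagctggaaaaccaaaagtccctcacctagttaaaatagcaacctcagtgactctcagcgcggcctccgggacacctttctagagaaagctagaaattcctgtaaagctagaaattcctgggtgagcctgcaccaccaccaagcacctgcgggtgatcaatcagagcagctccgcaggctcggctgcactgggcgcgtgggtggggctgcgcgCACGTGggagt
Dazl: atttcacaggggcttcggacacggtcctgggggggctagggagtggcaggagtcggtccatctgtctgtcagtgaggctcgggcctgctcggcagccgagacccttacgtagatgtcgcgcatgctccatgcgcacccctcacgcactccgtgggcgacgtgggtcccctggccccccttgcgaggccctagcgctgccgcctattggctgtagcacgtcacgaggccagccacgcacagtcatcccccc

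Positions are counted from the start, with -1 the base before it. Mael had its E-box at -223 and E2F cores at -143 and 12. Sycp3 had an E2F core at -147 and E-boxes at -64 and -43, the only pair of E-boxes among the 7 genes. Slc25a31 had its E-box at -93 and its E2F core at 21, after the start, and Tdrd1 had its E-box at -11. In Ddx4 both motifs lie before the RefSeq start and inside the first exon of the GENCODE transcript that carried nearly all of its counts, so short stretches are shown with 10 bases on either side, at chr13:112652431-112652456 for the E2F core at -136 and chr13:112652324-112652349 for the E-box at -29, both on the minus strand.
Ddx4 E2F core: cgtccatgggGCGGGAagtcgcgcgc
Ddx4 E-box: cgtccgcccgCACGTGcagccgttta

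**Figure D1:**
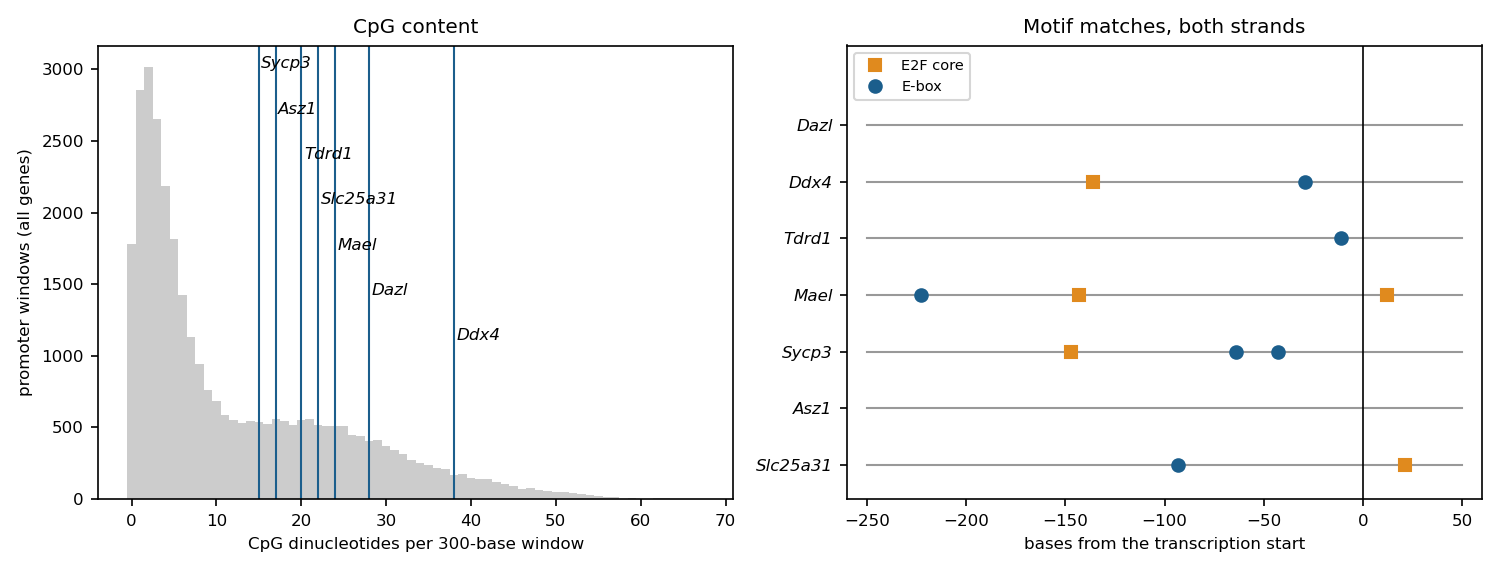
Left, the number of 300-base RefSeq promoter windows (vertical axis) with a given number of CpG dinucleotides (horizontal axis), with a line at the first window of each of 7 genes. Right, positions of E2F core (squares) and E-box (circles) matches in bases from the start. All 7 genes lie above the median window of 7 CpG, and 4 of 7 hold both motifs.

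The libraries held between 10783718 (clone 1) and 14309662 (clone 6) estimated counts. Levels are library-scaled counts (CPM, estimated counts relative to the library total) with trimmed-mean-of-M-values library scaling, and 13364 genes averaged 1 CPM or more over the 9 clones. Genes that define embryonic stem cells were present in every clone: Pou5f1 lay between 852 and 1289 CPM, Sox2 between 236 and 301 and Nanog between 249 and 537. The clones were divided into 3 sets, a chosen number, by rank correlation over all measured genes. The sets were clones 10 and 11, clones 8, 14 and 17, and clones 1, 4, 6 and 13, so no correlation over the 9 clones is given. Late spermatid and oocyte genes, which full germ cell differentiation would need, were mostly near 0. Of 17 listed, 2 averaged 1 CPM or more: Zp3, an egg coat protein, with a median of 9.35 CPM and up to 19.6, and Ldhc, the testis lactate dehydrogenase, with a median of 1.88. Prm1, Prm2, Tnp1 and Tnp2 had 1 or 2 counts each over all clones, and Pgk2 and Oosp1 had none. In bulk RNA a gene read in few cells and a gene read weakly in all cells cannot be told apart.

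Of the 8 genes, 6 averaged 1 CPM or more, at low levels, and 2 did not. Set per transcript length (TPM), the order of the medians over the 9 clones was Sycp3 at 11.3 TPM, Ddx4 at 7.28, Piwil2 at 5.08, Mael at 3.85, Dazl at 2.6, Tdrd1 at 0.835 and Slc25a31 at 0.267, with Asz1 between 0 and 0.19 TPM. Sycp3 ranged from 9.31 to 13.8 TPM and Ddx4 from 3.91 to 10.9 TPM. Neighbours in that order overlapped in their ranges over clones in 5 of 7 cases. The exceptions were Dazl, with at least 2.11 TPM in each clone, above Tdrd1, with at most 1.56, and Tdrd1, with at least 0.55 TPM, above Slc25a31, with at most 0.419. Sycp3 was above Ddx4, Ddx4 above Piwil2, Piwil2 above Mael and Mael above Dazl in 8 of 9 clones each.

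**Figure D2:**
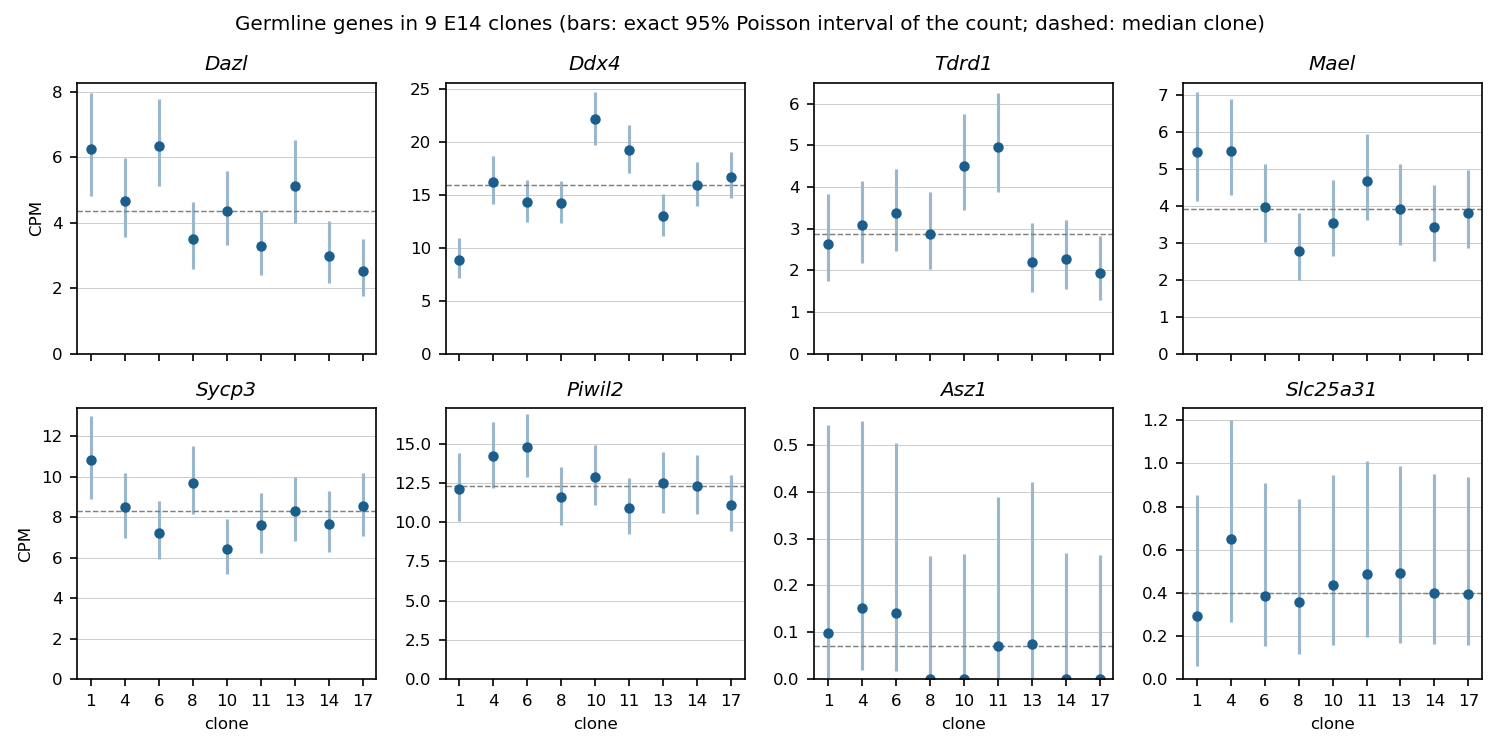
Level of each of the 8 genes in each of the 9 clones, in CPM, with exact 95% Poisson intervals of the counts as bars. Ddx4 is lowest in clone 1 (8.87 CPM) and highest in clone 10 (22.1 CPM), Piwil2 is nearly level, and Asz1 rests on at most 2 counts per clone.

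Ddx4, the DEAD-box RNA helicase also called Vasa (chromosome 13, 112598333 to 112652475, minus strand), was the most abundant of the 8 by counts. Its levels were 8.87 CPM in clone 1, 16.2 in clone 4, 14.3 in clone 6, 14.2 in clone 8, 22.1 in clone 10, 19 in clone 11, 13 in clone 13, 15.9 in clone 14 and 16.7 in clone 17. Clones 10 and 11 were highest and clone 1 stood below the other 8. The estimated counts were 305 in clone 10 and 91 in clone 1, a 2.49-fold difference (exact 95% binomial interval 1.96 to 3.18). The range, which is the highest minus the lowest clone in log2 CPM, was 1.30, and without clone 1 it was 0.76, so clone 1 alone carries it past 1.

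Dazl, an RNA-binding protein that turns on translation in germ cells (chromosome 17, 50279395 to 50293636, minus strand), had 6.24 CPM in clone 1, 4.65 in clone 4, 6.35 in clone 6, 3.5 in clone 8, 4.35 in clone 10, 3.28 in clone 11, 5.13 in clone 13, 2.99 in clone 14 and 2.51 in clone 17. Clones 6 and 1 were highest and clones 17 and 14 lowest. The counts behind the extremes were 91 in clone 6 and 35 in clone 17, a 2.52-fold difference (1.69 to 3.84), and the range was 1.29. The order of clones for Dazl was therefore not that for Ddx4: clone 1 was the next highest for Dazl and the lowest for Ddx4.

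Among the genes of transposon silencing, Tdrd1, a tudor-domain scaffold that binds PIWI proteins (chromosome 19, 56826209 to 56870012, plus strand), varied most. It had 2.63 CPM in clone 1, 3.08 in clone 4, 3.37 in clone 6, 2.86 in clone 8, 4.51 in clone 10, 4.97 in clone 11, 2.19 in clone 13, 2.26 in clone 14 and 1.94 in clone 17. As for Ddx4, clones 10 and 11 were highest, here with clone 11 first. The counts were 71.2 in clone 11 and 27 in clone 17, a 2.56-fold difference (1.62 to 4.14), and the range was 1.29.

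Mael, a protein of the nuage needed to silence transposons in spermatogenesis (chromosome 1, 166201201 to 166238747, minus strand), had 5.46 CPM in clone 1, 5.49 in clone 4, 3.98 in clone 6, 2.78 in clone 8, 3.55 in clone 10, 4.68 in clone 11, 3.93 in clone 13, 3.43 in clone 14 and 3.81 in clone 17. Clones 4 and 1 were highest and clone 8 lowest, with a 1.97-fold difference between clones 4 and 8 (1.32 to 2.99) and a range of 0.94.

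Piwil2, the PIWI protein that binds piRNAs in fetal male germ cells (chromosome 14, 70372477 to 70429383, minus strand), had the smallest range of the 6 in log2 CPM. Its levels were 12.1 CPM in clone 1, 14.2 in clone 4, 14.8 in clone 6, 11.6 in clone 8, 12.9 in clone 10, 10.9 in clone 11, 12.5 in clone 13, 12.3 in clone 14 and 11.1 in clone 17. Clones 6 and 11 differed 1.36-fold (1.10 to 1.68), a range of 0.43. On the log2(TPM + 1) scale its range was 0.71, above the 0.53 of Sycp3. Asz1, a mitochondria-anchored piRNA factor (chromosome 6, 18050964 to 18109061, minus strand), had 7 counts in all: 2 each in clones 4 and 6, 1 each in clones 1, 11 and 13, and none in clones 8, 10, 14 and 17. All 9 values are under the limit of 3 counts, which corresponds to between 0.209 and 0.293 CPM by library, so no fold is given and Asz1 was not detectable beyond that limit.

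Sycp3, a component of the axial element of meiotic chromosomes (chromosome 10, 88459569 to 88473236, plus strand), had 10.8 CPM in clone 1, 8.49 in clone 4, 7.22 in clone 6, 9.67 in clone 8, 6.44 in clone 10, 7.62 in clone 11, 8.3 in clone 13, 7.65 in clone 14 and 8.55 in clone 17. Clone 1, the lowest for Ddx4, was the highest for Sycp3, and clone 10, the highest for Ddx4, was the lowest for Sycp3. The difference was 1.68-fold (1.26 to 2.24), a range of 0.73. Sycp3 overlaps Chpt1 on the opposite strand, and 660 of its 1264 exonic bases also lie in Chpt1 exons. The library kit keeps strand, but whether the counting used it is unstated in the labels and notes, so part of the Sycp3 level could be Chpt1 reads.

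Slc25a31, the testis form of the mitochondrial ADP/ATP carrier (chromosome 3, 40708855 to 40726096, plus strand), had 3 counts in clone 1, 8.5 in clone 4, 5.5 in clone 6, 5 in clone 8, 6 in clone 10, 7 in clone 11, 6.5 in clone 13, 5.5 in clone 14 and 5.5 in clone 17. It has 1 annotated transcript, and its count is not a whole number in 5 of 9 clones, so some reads were divided with another transcript. Levels were 0.648 CPM in clone 4 and 0.293 in clone 1, a ratio of 2.22 whose interval of 0.5 to 12.2 includes 1. The highest and the lowest clone did not differ detectably at this depth.

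Read against all genes, the spread of these 6 genes was close to that of genes at like level. Of the 6, 3 had a range of 1 log2 unit or more (Ddx4, Dazl and Tdrd1), while 35.2% of the 13364 measured genes did, and 48.7% of the 3427 genes whose mean level lies within the span of the 6. On the log2(TPM + 1) scale only Ddx4 among the 6 did, while 27.7% of measured genes did. None of the 6 had a range of 2 or more, against 7.91% of measured genes and 10.1% of those at like level. The median range in log2 CPM was 1.11 for the 6, 0.78 for all measured genes and 0.98 for those at like level.

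Counts of a gene can differ between libraries by sampling alone, so each gene's 9 counts were also compared with Poisson sampling (chi-square, Benjamini-Hochberg adjusted over 13364 genes). Of the 6, 5 differed beyond it, against 89.4% of all measured genes. The adjusted p was 2.7e-15 for Ddx4, 2.42e-07 for Dazl, 7.94e-06 for Tdrd1, 0.00859 for Mael and 0.0102 for Sycp3 in this chi-square test. Piwil2 did not pass, with an adjusted p of 0.0591. With scaling factors computed over all genes, an alternative added after the data were seen, its adjusted p was 0.0403. The test says that libraries differ, not which condition they differ by.

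No clone was highest or lowest for most of the genes. Clone 6 was highest for Dazl and Piwil2, clone 10 for Ddx4, clone 11 for Tdrd1, clone 4 for Mael and clone 1 for Sycp3. Clone 17 was lowest for Dazl and Tdrd1, clone 1 for Ddx4, clone 8 for Mael, clone 10 for Sycp3 and clone 11 for Piwil2. On the log2(TPM + 1) scale the extremes were clones 1 and 4 for Dazl, clone 11 was the highest for Mael and clone 8 the lowest for Piwil2, while those of Ddx4, Tdrd1 and Sycp3 were as in CPM. By the root-mean-square difference of log2 CPM centred over the 9 clones, Piwil2 was the member most like Dazl, at rank 1873 of 13363 genes, and Ddx4 the member most like Tdrd1, at rank 1912. These are the closest ranks that any of the 6 reached for another.

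**Figure D3:**
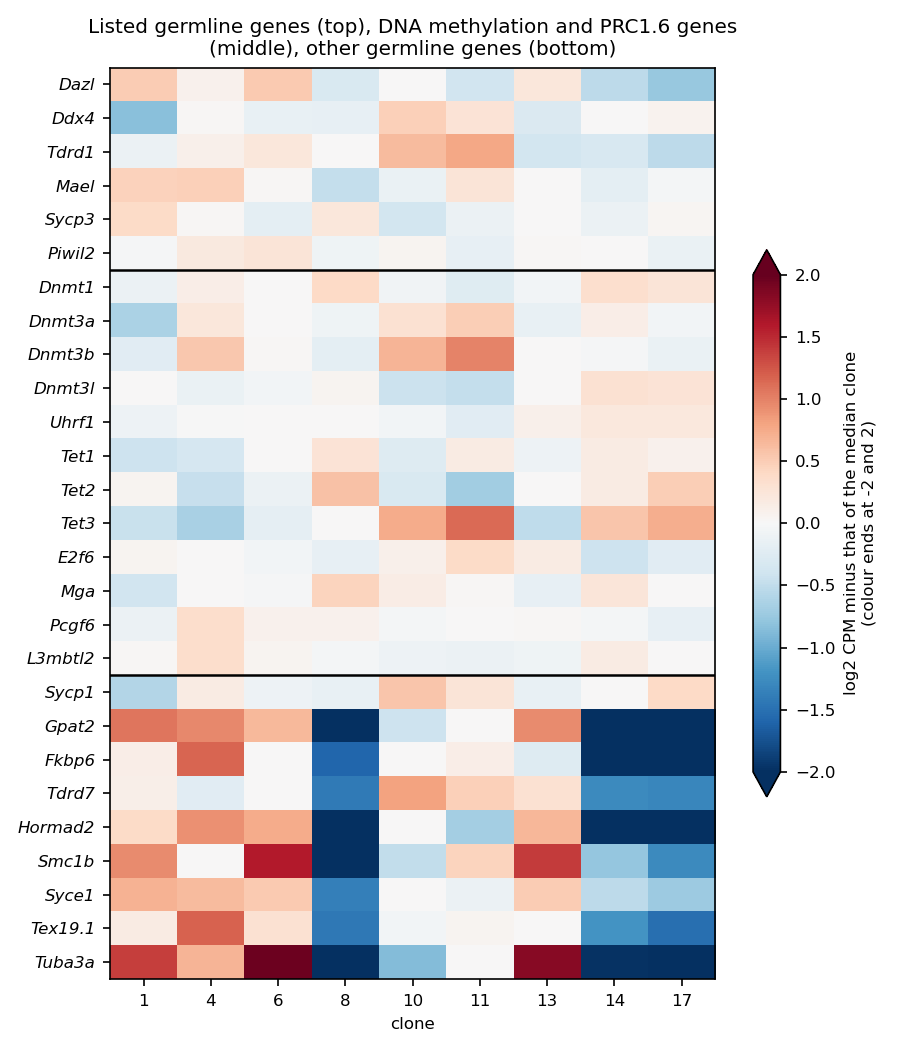
Deviation of each gene (rows) in each clone (columns) from its median clone, in log2 CPM, for the 6 measured genes (top), genes of DNA methylation and PRC1.6 (middle) and other germline genes (bottom). The bottom rows are Sycp1 and a selection of genes with a range of 2 or more, and do not stand for their lists. Clones 8, 14 and 17 are low for Gpat2, Fkbp6, Hormad2, Tex19.1 and Tuba3a. Dnmt3l and Syce2, which is not drawn, were highest in those clones. Syce2 lies on chromosome 8, whose genes had median deviations of 0.28, 0.32 and 0.32 log2 in clones 8, 14 and 17. Their part in its level was not tested. No column is dark for all 6 genes at the top.

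By the same measure the genes nearest to each were named over the 9 clones. For Ddx4 they were Sycp1 (difference 0.109), Tbc1d5 (0.109) and Trim46 (0.127). Sycp1, the transverse filament protein of the synaptonemal complex, had 4.27 CPM in clone 10 and 1.85 in clone 1, the same extremes as Ddx4. Sycp1 was picked for its likeness to Ddx4, so the shared extremes are no separate result. For Dazl the nearest were Ehhadh (0.107), Ptpn6 (0.14) and Cyb561 (0.148), and for Tdrd1 Tmem72 (0.151), Galnt17 (0.158) and Rtl8b (0.165). For Mael they were Atl1 (0.083), Lmtk3 (0.105) and Coq3 (0.11), for Sycp3 Zfp938 (0.092), Atraid (0.093) and Ccdc163 (0.105), and for Piwil2 Zscan20 (0.043), Palb2 (0.057) and Msra (0.062). Sycp1 is the one germline gene of the lists used here among these 18. A small difference is easier to reach for a gene with a small range, such as Piwil2.

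Other germline genes of 3 lists, 17 of the piRNA pathway, 23 of meiosis and 16 reported as dependent on methylation, gave a wider spread. Of these 56 genes 34 averaged 1 CPM or more, 28 of 34 had a range of 1 or more and 13 of 34 one of 2 or more. Over all measured genes the shares were 35.2% and 7.91%. The median range was 1.36 for the 34 and 0.78 for all measured genes. Dnmt3l, in the methylation-dependent list, is also counted among the DNA methylation genes below. The lists were chosen with earlier results of these clones known, so the counts are a description. In the piRNA list 4 of 12 measured genes passed 2: Gpat2, an acyltransferase-family protein of the mitochondrial surface, at 4.19, Fkbp6, a co-chaperone, at 4.05, Tdrd7, a tudor protein, at 2.23 and Piwil4 at 2.1. In the meiosis list 3 of 13 did, the HORMA-domain axis protein Hormad2 at 4.21, the cohesin subunit Smc1b at 3.59 and the synaptonemal complex protein Syce1 at 2.05. In the methylation-dependent list 6 of 9 did, led by Xlr3a at 5.19, Tuba3a at 4.74 and Tex19.1, a regulator of retrotransposons, at 2.69. Xlr3a and Tuba3a have near-identical copies, so their counts are uncertain.

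The wide spread of those genes followed 3 clones. Gpat2 had 13.3 CPM in clone 1 and 0.583 in clone 14, and Hormad2 had 7.93 CPM in clone 4 and 0.287 in clone 17. Clones 8, 14 and 17 were all below each of the other 6 clones in 11 of the 13 germline genes with a range of 2 or more, the exceptions being Piwil4 and Sohlh2. They were so in 15 of 34 measured germline genes of the lists, and in 0 of the 6 genes followed here. Over all measured genes the share was 14.1%, and over the 1057 genes with a range of 2 or more it was 29.5%. The 3 clones also had less RNA from chromosome 11: its genes had a median deviation from their median clone of -0.41 log2 in clone 8, -0.36 in clone 14 and -0.39 in clone 17. Hormad2, Tex19.1 and Tex19.2 lie there, and their deviations in the 3 clones were between -0.83 and -3.29; the part of chromosome 11 in them was not tested. Tuba3a was highest in clones 6, 13 and 1, where the 40 measured genes within 1 Mb of it had median deviations of 0.36, 0.45 and 0.49, and their part in its level was not tested either.

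**Figure D4:**
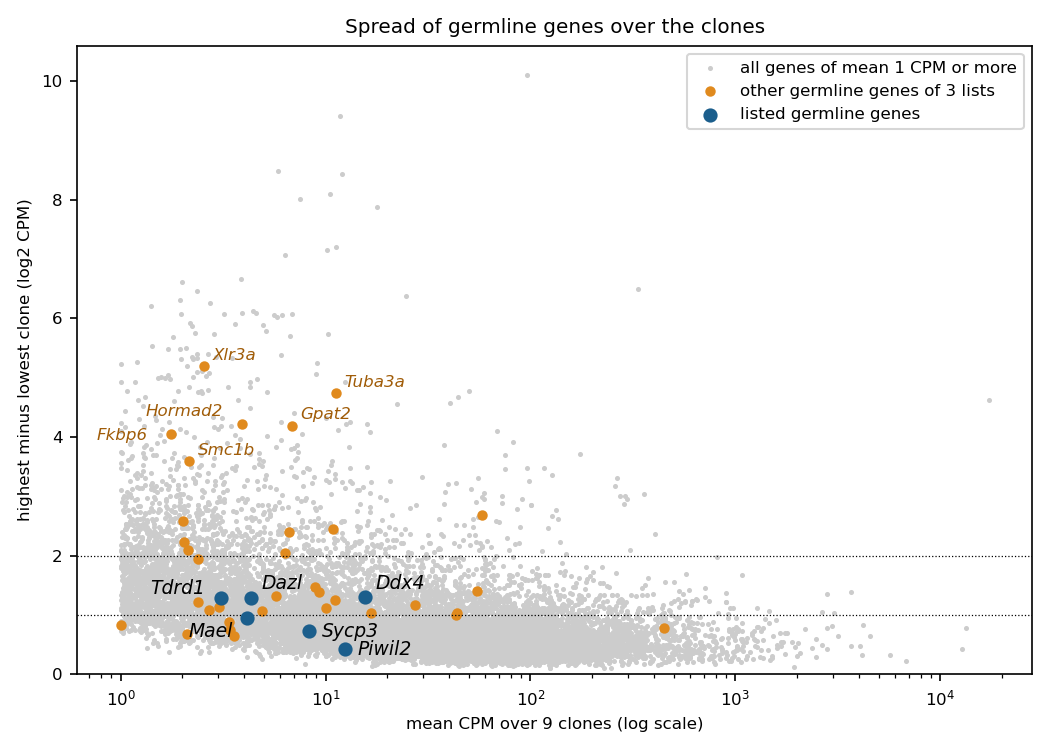
Highest minus lowest clone in log2 CPM (vertical axis) against the mean CPM over 9 clones (log axis), for all genes of mean 1 CPM or more (grey), 34 other germline genes (orange) and the 6 measured genes described here (blue). Dotted lines mark 1 and 2 log2 units. The 6 lie below 2, among genes of like level, and Xlr3a, Tuba3a, Hormad2, Gpat2, Fkbp6 and Smc1b lie above 3.

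The chromosomes that hold the 6 measured genes did not stand apart, with median deviations within 0.03 log2 in each clone. Chromosome 6, which carries Asz1, was at 0.14 in clone 1 and 0.10 in clone 13. The extreme clones of nearby genes were compared with those of the 6. Each was set beside its nearest measured gene on either side within 1 Mb that does not overlap it, 12 pairs in all. The same highest and the same lowest clone were found in 2 of 12, against 4.36% of such pairs over all measured genes. Rftn1, 88721 bases from Dazl, had 5.79 CPM in clone 6 and 1.51 in clone 17. Ccdc186, 4019 bases from Tdrd1, had 42.6 CPM in clone 11 and 26.9 in clone 17. Chpt1, which shares exonic bases with Sycp3 and so is no separate measure, also had its extremes, with 12.6 CPM in clone 1 and 8.35 in clone 10.

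Methylation itself was not measured in the files analysed here. RNA of DNA methylation genes is given beside the germline levels, and it does not measure methylation at these promoters. Of 11 DNA methylation genes, all measured, 4 had a range of 1 or more and none of 2 or more, and the median range was 0.81, close to the 35.2% and 0.78 of all measured genes. Dnmt3b, a de novo methyltransferase, had 460 CPM in clone 11, 373 in clone 10 and 338 in clone 4, against 198 in clone 1. Dnmt3a, the other de novo methyltransferase, had 146 CPM in clone 11 and 66.5 in clone 1. Clone 1 was lowest for Ddx4, highest for Sycp3 and next highest for Dazl and Mael. It was the lowest for 4 of these 11 genes (Tet1 and Tdg as well). Clone 1 was so too for 6 of 14 PRC1.6 and E2F6 genes and for 3 of 8 H3K9 methylation genes, against 15.2% of all measured genes. Being lowest for several DNA methylation genes was not particular to clone 1: clone 11 was lowest for Dnmt1, Dnmt3l, Uhrf1 and Tet2. The 11 genes summed to 5417 CPM in clone 1, within the 5022 to 6823 CPM of the other clones. A link between these levels and those of the 8 germline genes was not tested. Tet3, a dioxygenase that oxidises methylcytosine, had 17.7 CPM in clone 11 and 5.03 in clone 4, a range of 1.78, and Dnmt1, the maintenance methyltransferase, had 560 CPM in clone 8 and 359 in clone 11, a range of 0.64.

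Genes of the repressor complex were present in each clone. Of 14 PRC1.6 and E2F6 genes, 3 had a range of 1 or more, against 35.2% of all measured genes. None had a range of 2 or more, against 7.91%, and the median was 0.69, against 0.78. The 3 past 1 were Yaf2 at 1.63, highest in clone 11 with 6.64 CPM, Tfdp1 at 1.10 and Hdac1 at 1.07. Tfdp1, highest in clone 14 and lowest in clone 1, lies on chromosome 8. Genes of chromosome 8 had median deviations of 0.32 log2 in clone 14 and -0.18 in clone 1, and their part was not tested. E2f6 lay between 14.8 and 26.1 CPM, Mga between 211 and 377, Pcgf6 between 55.5 and 79.7 and L3mbtl2 between 231 and 321. Of 8 H3K9 methylation genes, whose mark is a further layer over germline promoters, none had a range of 1 or more. Their median was 0.56. Both lists had their highest sums in clones 8, 14 and 17. The PRC1.6 and E2F6 genes summed to 2425, 2427 and 2391 CPM there, and to between 1782 and 2128 elsewhere. The H3K9 methylation genes summed to 957, 1021 and 996 CPM there, and to between 755 and 903 elsewhere.

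Markers of other cell types were read beside Ddx4 and Tdrd1, which were highest in clones 10 and 11. The 11 fibroblast markers, of which 7 averaged 1 CPM or more, summed to 72.2 CPM in clone 11 and 64.5 in clone 10, and to between 12.3 and 28.3 CPM in the other 7 clones. That difference was carried by the collagen chains: Col1a1 had 42.5 CPM in clone 11 and 33.4 in clone 10, and at most 7.17 elsewhere. Without Col1a1, Col1a2 and Col3a1, left out after their values were seen, the other 8 summed to 18.2 CPM in clone 10 and 17.4 in clone 11, against 18.6 in clone 4, 18.4 in clone 6 and 10.8 in clone 8. Among them Thy1 was highest in clone 4, Pdgfra in clone 6, Twist1 in clone 17 and Pdgfrb in clone 10, with 5.8 CPM. Twist2 had 0.58 CPM in clone 10 and 0.839 in clone 11, and at most 0.14 elsewhere. Lum, Postn and Dcn had 2, 8 and 22 counts over all clones. Postn and Dcn were highest in clone 11, with 0.489 and 0.629 CPM. The 12 primitive endoderm markers summed to 344 CPM in clone 10 and 329 in clone 11, and to between 226 and 285 CPM elsewhere, nearly all of it from the basement membrane genes Lamb1 and Col4a1. Without these, left out in the same way, the other 10 summed to 13.3 CPM in clone 10 and 16.3 in clone 11, within the 10.1 to 17.3 CPM of the other 7 clones. Gata4 and Sox7 were highest in clone 17, Gata6, Amn and Cubn in clone 1, Pdgfra in clone 6 and Hnf4a in clone 13. Hnf4a was lowest in clone 11. Dab2 had 7.83 CPM in clone 11 and 3.84 in clone 10, and at most 3.42 elsewhere. Sox17 and Foxa2, both under 1 CPM, were highest in clone 10. Col4a1 lies on chromosome 8, whose genes had median deviations of 0.27 log2 in clone 10 and -0.19 in clone 11. Their part in its level was not tested. The part of other cell types in the Ddx4 and Tdrd1 levels was not tested.

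The estimated counts also fall on single transcripts, with less certainty than on genes. Ddx4, Mael and Piwil2 each had 1 leading transcript in every clone, with shares of 89.5% to 100% for Ddx4, 82.8% to 100% for Mael and 83.3% to 99.2% for Piwil2. Dazl did so in 8 of 9 clones: the transcript ENSMUST00000010736 had 10.9% of the gene's counts in clone 17. There it had 3.8 counts and ENSMUST00000233248 had 24.05, or 68.7%. The transcripts differ in exon 1, which covers 50293407 to 50293636 (230 bases) in the one and 50292821 to 50292892 (72 bases) in the other, nearer to the gene body. They share 2746 bases, so the division rests on little sequence. ENSMUST00000233248 also had 20.36 counts in clone 6, 13.66 in clone 10 and 11.16 in clone 8, where it did not lead. Clone 17, with 35 Dazl counts, was also the lowest clone for Dazl as a whole.

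In each clone the Tdrd1 counts went almost whole to 1 transcript. ENSMUST00000111606 had 62.29 counts in clone 10, 29.05 in clone 13 and 31 in clone 14 and at most 0.11 in the other 6 clones, where ENSMUST00000078723 had nearly all of them. These transcripts share 4858 bases and differ by 56 and 29 bases of exon 1, so the division rests on very little sequence, and the gene sum is the safer value. For Sycp3 the transcript ENSMUST00000020252 had between 40.8% and 97.2% of the counts and ENSMUST00000125612 between 0% and 53.1%. ENSMUST00000125612 lacks the first 95 bases and has 124 further bases in exon 8.

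**Figure D5:**
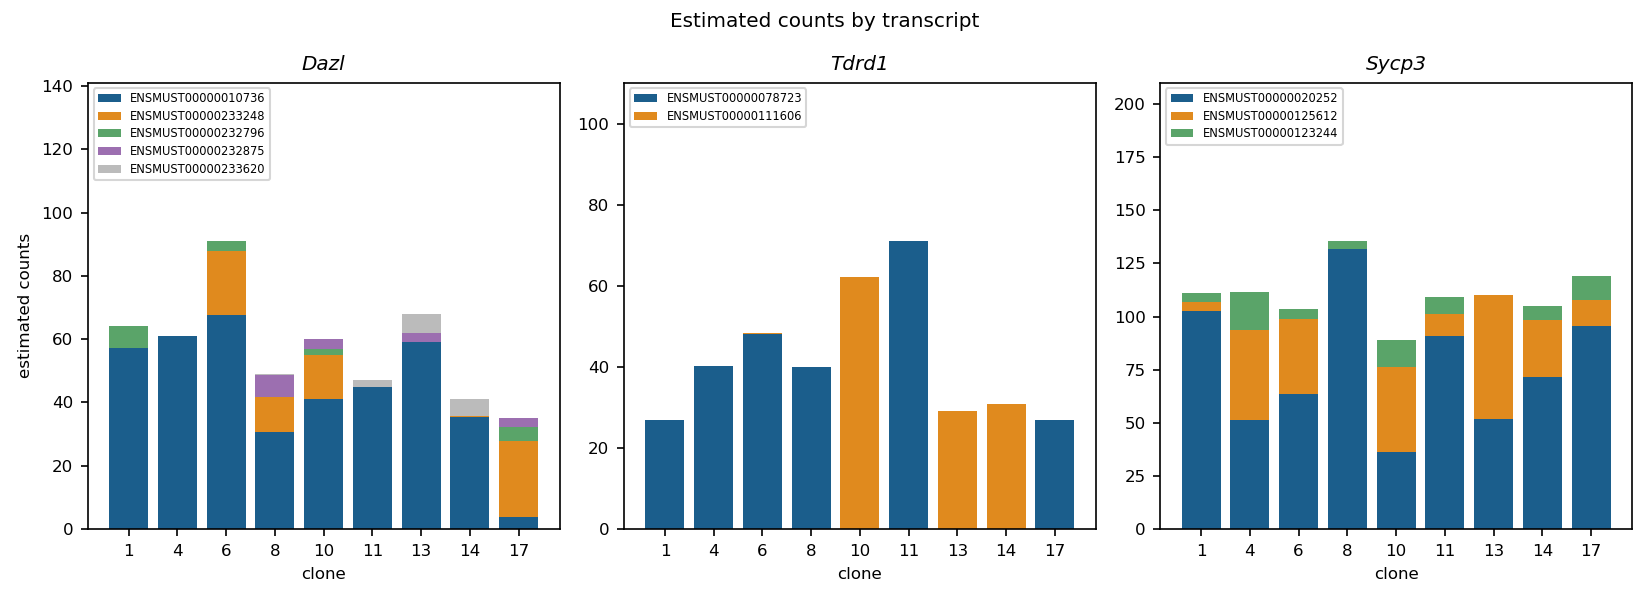
Estimated counts given to each transcript (vertical axis, stacked) in each clone (horizontal axis) for Dazl, Tdrd1 and Sycp3. Clone 17 differs from the others in the leading Dazl transcript, and Tdrd1 counts sit on a different transcript in clones 10, 13 and 14 than in the other 6.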

How the data were processed

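The authors deposited 1 transcript table per clone with estimated counts and TPM, both made by kallisto. Version 0.43.1 of kallisto, Trimmomatic 0.33, FastQC and CASAVA 1.8 appear in the submitters' processing notes, with GRCm38 and mm10 as builds. The annotation release and whether kallisto used strand are not given in the sources used. The deposited estimated counts and TPM values were summed per symbol through GENCODE M21: 113580 of 115270 transcripts matched (98.53%), and 0.641% to 0.773% of counts per library were left out. CPM used edgeR 4.0.16 (TMM over genes of mean 1 CPM or more, log2 with a prior count of 2) in R 4.3.3. Intervals of a ratio are exact binomial, those of a level exact Poisson, both at 95% on rounded counts. They cover counting error only, and the extreme clones were picked after their values were seen. Depth of 10783718 to 14309662 counts puts 3 counts at 0.209 to 0.293 CPM. The Poisson chi-square used scipy 1.17.1 in Python 3.11.15 and was checked on simulated counts.

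The genes followed and all lists were chosen with earlier results of these data known. Beyond the 8, the text names the 3 nearest genes per measured gene, neighbours within 1 Mb, up to 3 genes of largest range per list and a few fixed regulators and markers. Piwil4, Sohlh2, Tex19.2, Syce2, Pdgfrb, Twist2, Dab2, Cubn, Rybp, Wdr5, Hdac2 and the genes at or near 0 were named after their values were seen. Alternatives were DESeq2 1.42.0 size factors, a prior count of 0.5, log2(TPM + 1), levels relative to genes within 1 Mb, filters of none or 5 CPM, leaving out each clone and, added later, TMM over all genes.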

Additional observations from a re-analysis of the deposited data

How the results depend on the processing

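None of the measured genes among the 8 reached a range of 2 log2 units under any setting run. The number with a range of 1 or more, 3 as reported, was 1 on log2(TPM + 1), 1 with a mean of 5 CPM or more, and 2 to 3 when each clone was left out. Over all genes, 4704 as reported passed 1: 11589 with no filter, 2407 at 5 CPM, and 4257 to 4605 leaving out each clone. Those passing 2, 1057 as reported, were 424 on log2(TPM + 1), 2714 with no filter, 352 at 5 CPM and 916 to 1023 leaving out each clone. The filters change how many genes are counted, and for the other settings the cause was not tested. The Ddx4 range was 0.76 without clone 1, against 1.30 over 9 clones. The Piwil2 adjusted p in the Poisson chi-square with Benjamini-Hochberg adjustment was 0.0591, 0.0576 with median-ratio factors and 0.0403 with TMM over all genes, and 5 to 6 of the 6 measured genes passed. Median-ratio factors moved the median of all genes by at most 0.016 log2 in any clone. Depth limits Asz1 and Slc25a31, whose counts allow no order of clones. No paired analysis was possible because the labels put no clone in a group, so nothing was compared between groups.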

Other observations

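Early germ cell and early embryo genes also differed between clones. Of 10 primordial germ cell genes 9 averaged 1 CPM or more, 8 of these had a range of 1 or more and 2 a range of 2 or more, where 35.2% and 7.91% of all measured genes did. Dppa3, a maternal and germ cell protein that guards methylation in the zygote, had 78.9 CPM in clone 4 and 8.33 in clone 17, a 9.47-fold difference (exact 95% binomial interval 7.81 to 11.6). Kit, the receptor of stem cell factor, had 146 CPM in clone 13 and 32.0 in clone 17, a 4.57-fold difference (4.12 to 5.08). For Nanos3, an RNA-binding protein that protects primordial germ cells, the order was another one, with 7.73 CPM in clone 14 and 2.38 in clone 11. Nanos3 lies on chromosome 8, whose genes had median deviations of 0.32 log2 in clone 14 and -0.19 in clone 11. The part of chromosome 8 in its level was not tested. The summed level of the 10 genes was 417 CPM in clone 6, 412 in clone 13 and 164 in clone 17.

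Genes of cells that resemble the embryo at its first cleavage were scarce: of 16 with a value 6 averaged 1 CPM or more. All 6 had a range of 1 or more, against 35.2% of all measured genes. Apart from Tmem92 they were Zscan4a, Zscan4c, Zscan4d, Zscan4e and Zscan4f, of the same family on chromosome 7, so the 6 are not separate measures. All 16 together summed to 26.2 CPM in clone 11 and 3.85 in clone 17. Several of the 16 have counts that are not whole numbers, so some reads were divided with other transcripts. Ldhc had 3.96 CPM in clone 4 and 0.431 in clone 17, and Zp3 had 19.6 CPM in clone 4 and 7.28 in clone 8.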
